A study of Mus musculus with 96 samples.

Results

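Described here are 10 genes of the neuronal microtubule system, among 24054 genes in the table. They are Map1a, Map1b, Map2, Mapt and Map6, which encode structural microtubule-associated proteins; Tppp and Tppp3, which encode tubulin polymerization-promoting proteins; Stmn2 and Stmn3, which encode stathmins; and Tubb3, which encodes a beta-tubulin. They were taken by name, and all 10 were found. Map6 and Tppp3 were selected on their measured levels in these cells, because they differed between temperature classes, so their values by class are a description and carry no test. Whole-cell patch-clamp recordings in brain slices gave each neuron its temperature class, after which a glass pipette took up the cell for RNA amplification by Smart-seq2, a full-length single-cell protocol. All 96 cells were preoptic area neurons from the hypothalamus of C57BL/6N mice aged 2 to 3 months, and the labels name no genotype or agent that differed between them. The labels gave 24 insensitive, 21 warm-sensitive and 5 cold-sensitive cells, 18 silent insensitive and 10 silent sensitive cells, and 18 cells of unknown class. The last 18 entered no comparison.

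Each library is 1 cell, and no label names the animal it came from. A class therefore counts as 1 sample, values are given without tests, and intervals cover counting error only. Libraries held 465167 to 3660726 counts. The ribosomal RNA gene Rn45s took 21.8 to 91.6% of them. Its median share was 67.7% in warm-sensitive, 61.8% in silent sensitive, 55.0% in silent insensitive, 56.1% in cold-sensitive and 45.4% in insensitive cells. Insensitive cells had a count in a median of 4022 genes and warm-sensitive cells in 3244, so the depth differed between classes. Of the neuronal markers, Snap25, a protein of synaptic vesicle fusion, reached 10 counts per 1000000 counts of the cell (CPM) in 90 to 100% of the cells of each class. Syt1 and Uchl1 reached it in 80 to 100% and Eno2 in 50 to 100%. The shares by class were lower for Syn1 (50 to 80%), Nefl (33.3 to 80%), Nefm (20 to 80%) and Rbfox3 (30 to 54.2%). Summed over 8 neuronal markers, the median was 3403 CPM in insensitive, 3076 in cold-sensitive, 2031 in silent insensitive, 1286 in warm-sensitive and 1077 in silent sensitive cells. Markers of other cell types were also read. Over 8 oligodendrocyte markers the median sum ran from 86.5 CPM in warm-sensitive to 497 CPM in cold-sensitive cells. Mog was at 0 in the cold-sensitive, warm-sensitive and silent sensitive cells, while Mobp reached 10 CPM in 37.5 to 72.2% of the cells of each class. Over 8 astrocyte markers the median sum ran from 427 CPM in silent sensitive to 893 CPM in insensitive cells. Aldh1l1 was at 0 in the cold-sensitive and silent sensitive cells, while Aldoc reached 10 CPM in 61.9 to 100% of the cells of each class. Over 9 microglial markers the median sum ran from 440 CPM in insensitive to 2477 CPM in cold-sensitive cells. The cold-sensitive cells held a median of 7 of these 9 markers; each of 8 was held by 60 to 80% of them, and Tmem119 was at 0. Of 5 endothelial markers, Cldn5 and Ly6c1 were at 0 in all classes. Itm2a reached 10 CPM in 60% of cold-sensitive, 20.8% of insensitive, 9.52% of warm-sensitive, 5.56% of silent insensitive and 0% of silent sensitive cells. The median endothelial sum was 37.1 CPM in cold-sensitive cells and 0 in the other classes. The 4 ependymal markers had a median sum of 0 in each class. The part of this other RNA in the results below was not tested.

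Microtubules are polymers of alpha- and beta-tubulin that support axons and dendrites and carry motor proteins. Structural microtubule-associated proteins bind along the polymer and stabilize it, MAP2 mainly in dendrites and tau (Mapt) mainly in axons. MAP6, also called stable tubule-only polypeptide, is known for keeping neuronal microtubules intact when they are cooled. Stathmins act the other way: they bind free tubulin and favour disassembly. In the adult brain TPPP is known best from oligodendrocytes.

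Across the 78 classified cells the genes fell into widely and narrowly found ones. A cell is said to hold a gene when the gene reached 10 CPM there. Map1b was held by 97.4% of cells (exact Clopper-Pearson 95% interval 91.0 to 99.7%), Stmn3 by 91.0% and Stmn2 by 83.3%. Map1a (66.7%), Map2 (62.8%), Mapt and Tppp3 (61.5% each) and Tubb3 (59.0%) were held by most cells, and Map6 and Tppp by 34.6% each (24.2 to 46.2%). Levels can be set between genes only per length, as summed CPM divided by the kilobases of merged exons. On that scale Stmn3 led with 861 CPM per kb, followed by Tppp3 with 176, Tubb3 with 125, Stmn2 with 82.0 and Map1b with 51.9. Mapt gave 30.3 CPM per kb, Map1a 13.9, Tppp 7.92, Map2 6.45 and Map6 4.05. In the cells that held them, the median was 71.8 CPM for Map6 and 81.8 CPM for Tppp. Single cells weighed on the sums, from 7.09% of a gene's counts in its highest cell for Map1b to 20.5% for Map2.

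**Figure D1:**
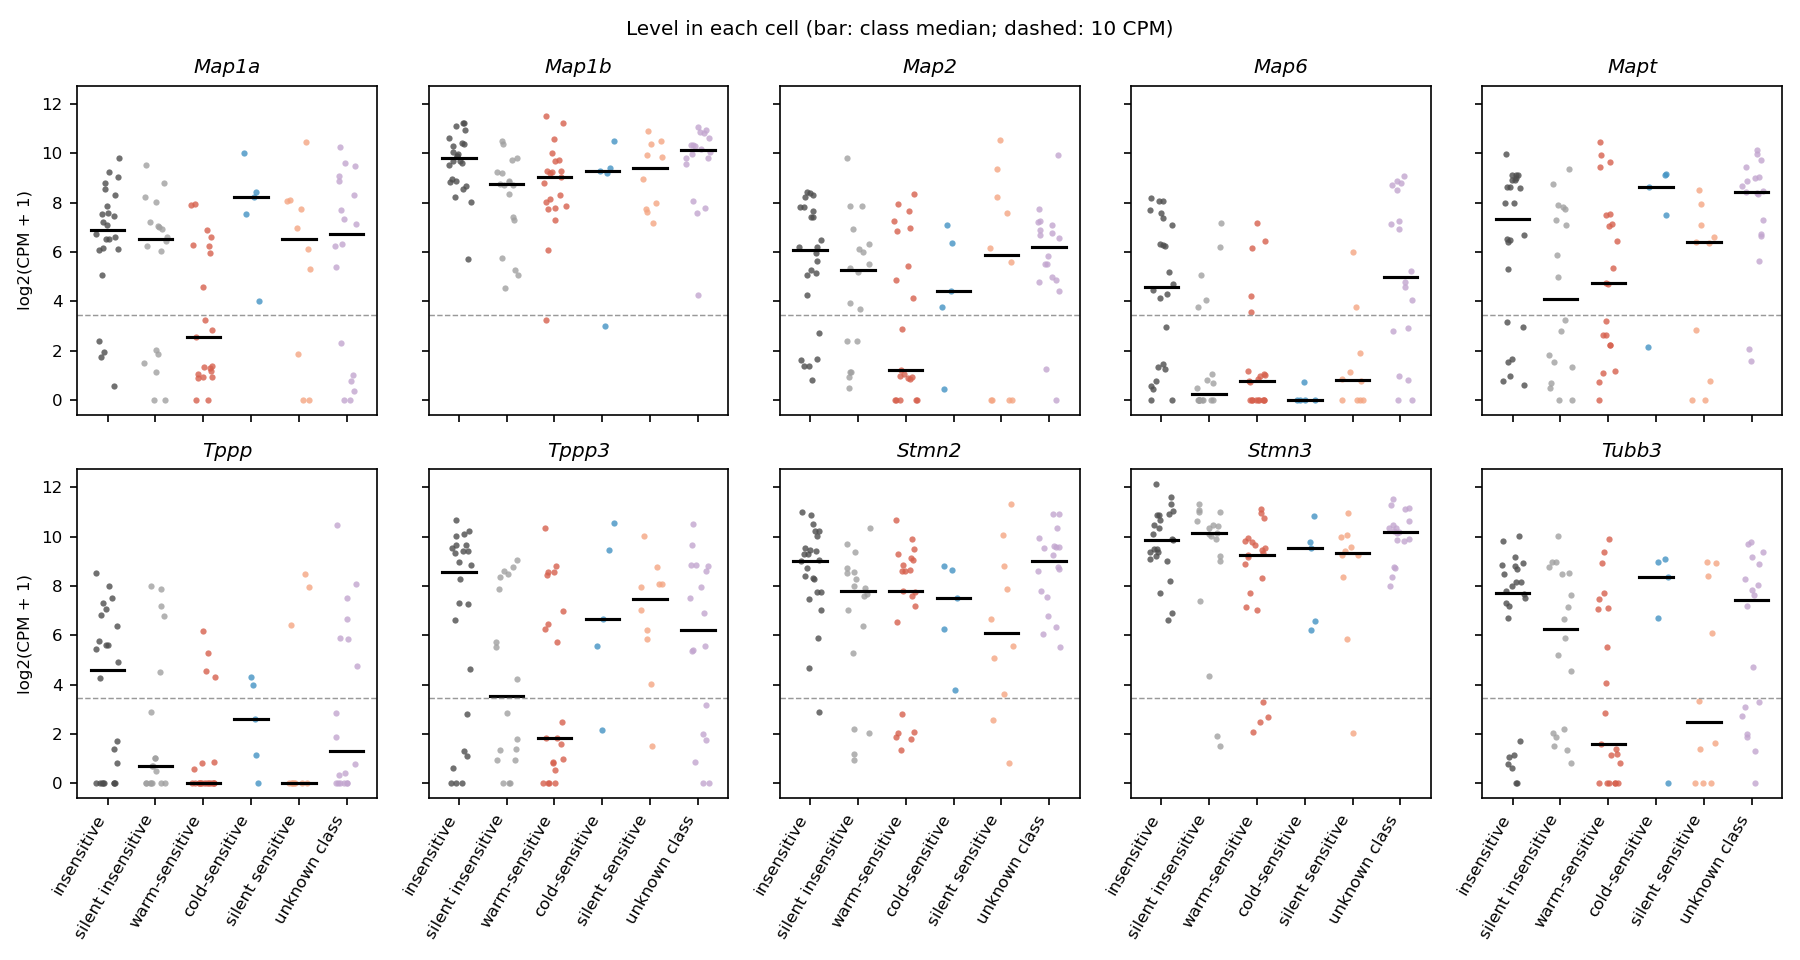
Level of each of the 10 genes in every cell as log2(CPM + 1), by temperature class; each point is a cell, the black bar is the class median and the dashed line marks 10 CPM. Map1b and Stmn3 stand high in nearly all cells, the other genes split into cells near 0 and cells far above the line, and all 5 cold-sensitive cells lie below the line for Map6.

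Map6 lies on chromosome 7 at 99267447 to 99337137 on the plus strand (mm10). Its 5 cold-sensitive values were 0 CPM in 4 cells and 0.639 CPM, a single count, in the other. Insensitive cells ran from 0 to 293 CPM with a median of 23.2, warm-sensitive cells from 0 to 145 CPM with a median of 0.692, silent insensitive cells from 0 to 145 CPM with a median of 0.205, and silent sensitive cells from 0 to 63.8 CPM with a median of 0.754. The firing insensitive class thus stood above the other classes, although its range overlapped all of them: 2 of its 24 cells were at 0 and 7 more were below 10 CPM. The share of cells that held Map6 was 62.5% (40.6 to 81.2%) in insensitive, 27.8% (9.70 to 53.5%) in silent insensitive, 23.8% (8.22 to 47.2%) in warm-sensitive and 20% (2.52 to 55.6%) in silent sensitive cells. It was 0 of 5 in cold-sensitive cells, which allows a share of up to 52.2%. Summed over cells, the level was 76.1 CPM in insensitive cells (exact Poisson 95% interval 73.4 to 78.8) and 0.109 CPM in cold-sensitive cells (0.00276 to 0.607). The summed level was 20.1 CPM in warm-sensitive, 19.2 CPM in silent insensitive and 8.11 CPM in silent sensitive cells. Every cell was also thinned to 200000 counts outside Rn45s, and 10 CPM was then taken over those counts. The share holding Map6 was then 66.7% of 24 insensitive, 25% of 20 warm-sensitive and 28.6% of 14 silent insensitive cells. It was 30% of 10 silent sensitive and 0% of 5 cold-sensitive cells. Too shallow to enter were 1 warm-sensitive and 4 silent insensitive cells.

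Ordered by mean log2(CPM + 1), Map6 stood at 4.36 in insensitive, 1.63 in silent insensitive, 1.63 in warm-sensitive, 1.45 in silent sensitive and 0.14 in cold-sensitive cells. The step from insensitive to silent insensitive cells was 2.73, against a standard deviation (SD) of 2.44 over cells in the less variable class. The step from silent sensitive to cold-sensitive cells was 1.30, against an SD of 1.99 in the silent sensitive cells; the SD of 0.32 in the cold-sensitive cells comes from 4 zeros and a single count. No other gene had neighbours in the order of class means further apart than the smaller SD, and Map6 had been chosen for its pattern.

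Map1a, on chromosome 2 at 121289600 to 121310832, encodes a microtubule-associated protein typical of mature neurons. Its cold-sensitive values were 15.2, 184, 297, 346 and 1031 CPM. Insensitive cells ran from 0.486 to 910 CPM with a median of 120, and warm-sensitive cells from 0 to 249 CPM with a median of 4.84. Silent insensitive cells had a median of 92.5 CPM and silent sensitive cells of 96.2 CPM. Warm-sensitive cells were the low class and cold-sensitive cells the high one, with overlapping ranges. The gene was held by 38.1% of warm-sensitive cells (18.1 to 61.6%), by 83.3% of insensitive cells (62.6 to 95.3%), by 66.7% of silent insensitive and 70% of silent sensitive cells, and by 5 of 5 cold-sensitive cells (47.8 to 100%). Map1a overlaps Ppip5k1 on the opposite strand, which holds 3325 counts over all cells, and no source used here says whether strand was counted.

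Map1b, on chromosome 13 at 99421446 to 99516540, encodes the related protein known from growing axons. It was found in nearly all cells: 100% of insensitive, silent insensitive and silent sensitive cells, 95.2% of warm-sensitive cells and 4 of 5 cold-sensitive cells. Medians were 898 CPM in insensitive, 717 in silent sensitive, 616 in cold-sensitive, 526.3 in warm-sensitive and 431 in silent insensitive cells. The cold-sensitive values were 592, 616, 677 and 1471 CPM, and 6.93 CPM in cold-sensitive cell 4. That cell stood far below the others; it also had the fewest genes with a count of its class, 2199.

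Map2 lies on chromosome 1 at 66175273 to 66442583 and Mapt on chromosome 11 at 104231390 to 104332090. Map2 had medians of 67.3 CPM in insensitive, 58.9 in silent sensitive, 37.7 in silent insensitive, 20.4 in cold-sensitive and 1.32 in warm-sensitive cells, where 42.9% of cells (21.8 to 66.0%) held it against 75% of insensitive cells (53.3 to 90.2%). Its cold-sensitive values were 0.365, 12.7, 20.4, 81.8 and 136 CPM. Mapt had medians of 393 CPM in cold-sensitive, 176 in insensitive, 83.2 in silent sensitive, 26.0 in warm-sensitive and 19.5 in silent insensitive cells. Its cold-sensitive values were 179, 393, 563 and 569 CPM, and 3.47 CPM in cold-sensitive cell 4. Between 50 and 80% of the cells of each class held Mapt, and the classes overlapped in both genes.

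Tppp3, on chromosome 8 at 105467493 to 105471526, was the gene chosen for the silent cells. Silent sensitive cells ran from 1.83 to 1050 CPM with a median of 187, and silent insensitive cells from 0 to 534 CPM with a median of 11.97. Of the 10 silent sensitive cells 9 held it, 90% (55.5 to 99.8%), against 50% (26.0 to 74.0%) of silent insensitive cells; the ranges overlapped, and so did the intervals. At a fixed 200000 counts outside Rn45s, with 10 CPM taken over those counts, the shares were 90% of 10 and 71.4% of 14 cells. Summed counts gave 232 CPM (224 to 241) and 136 CPM (131 to 140). Among the other classes, insensitive cells had a median of 384 CPM (0 to 1658) and warm-sensitive cells of 2.55 CPM (0 to 1318). Cold-sensitive cells had 3.47, 46.0, 101, 706 and 1486 CPM. By class mean the order was cold-sensitive, silent sensitive, insensitive, silent insensitive and warm-sensitive, and no neighbours lay further apart than the SD over cells.

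Tppp lies on chromosome 13 at 74009407 to 74035753 and was at 0 in 37 of 78 cells. It was held by 54.2% of insensitive (32.8 to 74.5%), 27.8% of silent insensitive, 30% of silent sensitive and 19.05% of warm-sensitive cells (5.45 to 41.9%). The cold-sensitive values were 0, 1.23, 5.11, 14.97 and 18.5 CPM, and the highest value in any classified cell was 368 CPM in an insensitive cell. Across the 78 cells the summed oligodendrocyte markers had a Spearman correlation of 0.17 with Tppp and 0.0028 with Tppp3.

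The stathmin genes were found in nearly every firing insensitive cell. Stmn2, on chromosome 3 at 8509360 to 8561606, was held by 95.8% of insensitive, 71.4% of warm-sensitive, 77.8% of silent insensitive and 80% of silent sensitive cells. Its medians were 522 CPM in insensitive, 73.0 in silent sensitive, 222 in warm-sensitive and 220 in silent insensitive cells. The cold-sensitive cells had 12.7, 76.0, 180, 397 and 443 CPM. Stmn3, on chromosome 2 at 181306459 to 181314500, had medians from 605 CPM in warm-sensitive to 1129 CPM in silent insensitive cells. Per length it had the highest median of the 10 genes in each of the 5 classes, from 532 CPM per kb in warm-sensitive to 993 CPM per kb in silent insensitive cells. Its lowest insensitive cell still had 98.4 CPM, whereas 4 of 21 warm-sensitive, 2 of 18 silent insensitive and 1 of 10 silent sensitive cells were below 10 CPM. The cold-sensitive cells had 72.8, 94.0, 739, 875 and 1819 CPM.

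Tubb3, on chromosome 8 at 123411424 to 123422015, encodes the beta-tubulin used as a neuronal marker, yet only 59.0% of these neurons held it (47.2 to 70.0%). Insensitive cells had a median of 211 CPM (0 to 1055), silent insensitive cells of 79.0 CPM (0.774 to 1032), silent sensitive cells of 5.54 CPM (0 to 501) and warm-sensitive cells of 2.04 CPM (0 to 963). The cold-sensitive values were 102, 331, 501 and 542 CPM, and 0 in cold-sensitive cell 4. The ranges of all 5 classes overlapped. Tubb3 shares its strand and part of its span with the gene model Gm20388, so reads of both cannot be told apart from the counts. The same limit holds for Map6 with Gm45591, Map1b with 5330431K02Rik, and Map2 with Gm24729 and Gm25411.

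**Figure D2:**
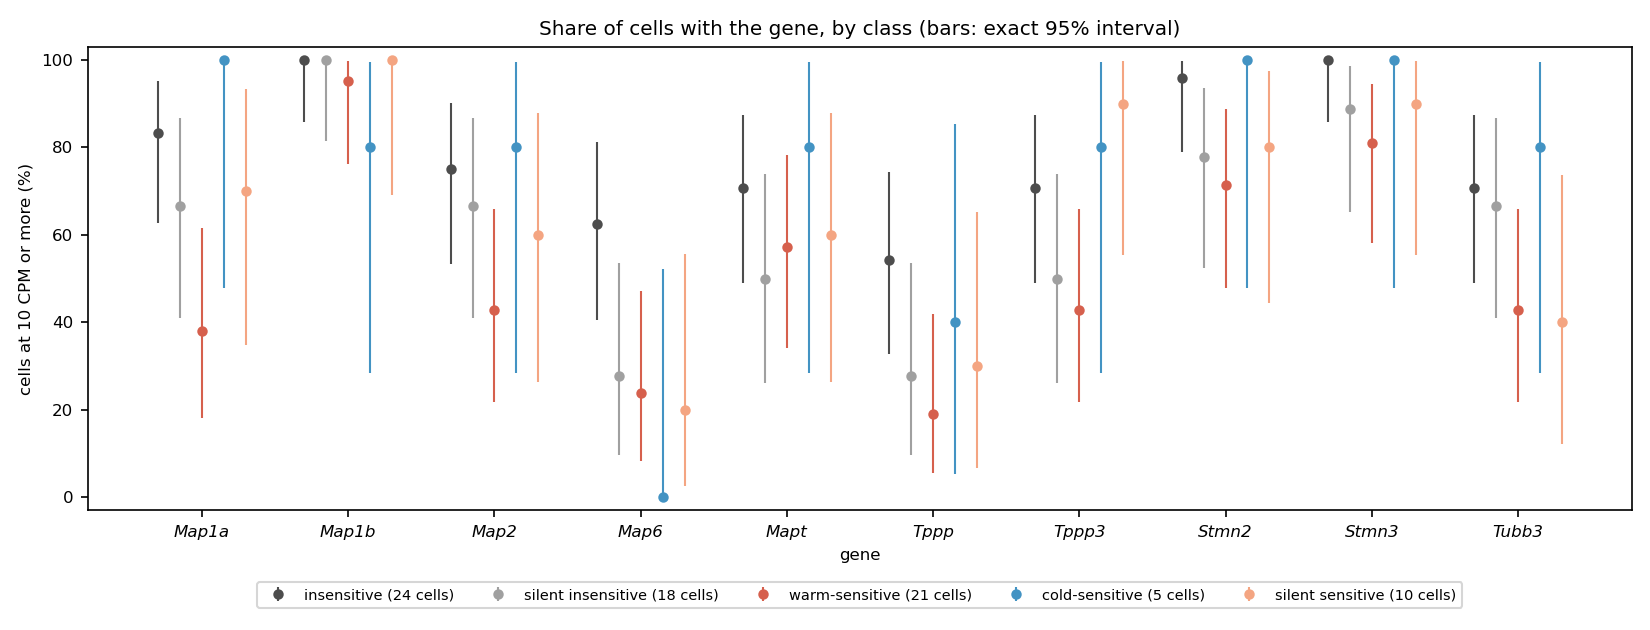
Share of cells at 10 CPM or more for each gene, by temperature class, with exact Clopper-Pearson 95% intervals for counting error. Warm-sensitive cells lie below insensitive cells for all 10 genes at the depth of each library, cold-sensitive cells lie at 0% for Map6, and silent sensitive cells reach 90% for Tppp3.

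The shares in warm-sensitive cells depended on how they were taken. At 200000 counts outside Rn45s in every cell, with 10 CPM taken over those counts, Map1b and Stmn3 were each held by 100% of 20 warm-sensitive and 24 insensitive cells. That limit is looser than 10 CPM over all counts, most of all in cells with a large Rn45s share. The part of depth alone was not tested. Mapt was then held by 85% of warm-sensitive and 79.2% of insensitive cells, against 57.1 and 70.8% over all counts of each cell. For the other 7 genes the warm-sensitive share stayed lower, with Map1a at 50 and 87.5%, Tppp3 at 60 and 75%, and Stmn2 at 95 and 100%.

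To set the classes against each other, the difference of mean log2(CPM + 1) was taken for each gene that reached 10 CPM in at least 25% and at least 3 cells of either class. The difference of the median gene was then subtracted, because most genes differed in the same direction. The result is called the relative difference, and a value of 1 or more in size is called past the limit. A gene that met the minimum through only 1 of the classes was apt to come out higher in that class. The counts below include Map6 and Tppp3, which were chosen because they differed by class, so nothing is read from a count against the share of all genes, nor from how these genes hold across settings.

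Warm-sensitive cells held fewer of these genes than insensitive cells. The question in this comparison was which genes distinguish neurons that respond to warming. Among the 10 genes 5 were past the limit downward, where 13% of all 4601 genes compared were, and 0 were past it upward, where 10% were. They were Map1a (relative difference -1.76), Map6 (-1.37), Tppp3 (-1.27), Tppp (-1.19) and Tubb3 (-1.12). Map6 and Tppp were held by 23.8 and 19.05% of warm-sensitive cells. Both met the minimum through the insensitive cells alone, so their directions carry little. Map2 lay at -0.86, Stmn2 at -0.46 and Stmn3 at -0.39, with Mapt at 0.19 and Map1b at 0.43. The median over the 10 was -0.99 relative to the median gene, which itself differed by -1.36. The median Rn45s share was 67.7% in the warm-sensitive and 45.4% in the insensitive cells, and 8 warm-sensitive but 0 insensitive cells exceeded 75%. Without those 8 cells 4 genes were past the limit and the median was -0.84. The count depended on the scaling: 1 gene was lower and 1 higher with DESeq2 size factors, and 1 was lower with a stricter limit on low genes. Map1a was past the limit in 13 of 14 settings, Map6 in 12, Tppp in 11, and Tppp3 and Tubb3 in 6 each. Tppp lay inside it when insensitive cell 7, 13 or 21 was left out, and Tubb3 when any of 16 cells was. Compared within the letters of the cell titles, 3 genes were past the limit, the median was -0.37, Map1a and Map6 each gave -1.60, and Tppp3 gave -0.11.

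In the cold-sensitive cells the genes went both ways. Set against the same 24 insensitive cells, 2 of 10 were past the limit downward (21.2% of 4644 genes) and 3 upward (22.8%). Lower were Map6 at -3.70 and Stmn2 at -1.03. Higher were Map1a at 1.70, Mapt at 1.62 and Tubb3 at 1.03. Tppp3 (0.91), Map2 (-0.53), Stmn3 (-0.67), Tppp (-0.70) and Map1b (-0.81) stayed within it. Map6, held by 0 of 5 cold-sensitive cells, met the minimum through the insensitive cells alone, so its direction carries little. Its value was past the limit in all 14 settings, from -5.89 to -1.79. It ran from -4.13 to -3.36 as each cell in turn was left out. The other values rested on the same few cold-sensitive cells. Map1a was 0.64 without cold-sensitive cell 4 and 0.23 within title letters. Tubb3 was 0.40 without cold-sensitive cell 2 and 2.23 without cell 4. Mapt ran from 1.11 without cell 2 to 2.44 without cell 4. Stmn2 lay inside the limit when cold-sensitive cell 1, 4 or 5 or any of 11 insensitive cells was left out, with -0.70 without cold-sensitive cell 4. Tubb3 lay inside it without cold-sensitive cell 1, 2 or 5 or any of 7 insensitive cells.

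A direct comparison of warm-sensitive with cold-sensitive cells covered 8 genes, since Map6 and Tppp did not meet the minimum in either class. Of these 3 were past the limit downward in warm-sensitive cells (26.2% of 2199 genes), namely Map1a (-2.75), Tppp3 (-1.46) and Tubb3 (-1.44). Another 3 were past it upward (29.2%), namely Map1b (1.95), Stmn2 (1.28) and Stmn3 (1.002), although their differences before the median gene was subtracted were 0.39, -0.27 and -0.56. The Map1b value was 1.35 without cold-sensitive cell 4, the Stmn2 value 0.56 without cell 1, and the Stmn3 value -0.028 without cell 5. Leaving out any of 12 cells took Stmn2 inside the limit, and any of 23 took Stmn3 inside it. Mapt lay at -0.71. Map2 lay at 0.39 and ran from -1.27 without cold-sensitive cell 3 to 1.77 without cell 4. Of the genes below the minimum, Map6 gave 3.04 and Tppp 0.22. Within title letters Map1a stayed at -2.51 and Tubb3 at -1.54, and Tppp3 gave 0.076.

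Among silent cells Tppp3 stood out, as it was chosen to. Silent sensitive cells were higher than silent insensitive cells for Tppp3 by a relative difference of 3.19 and for Map1b by 1.62, and lower for Tubb3, at -1.06. That is 2 of 10 genes upward, where 23% of 3459 genes were past the limit, and 1 downward, where 18% were. The upward count was 7 in thinned cells, 5 with summed counts and 4 with DESeq2 size factors, and the downward count was 0 in thinned cells and with summed counts. The other 7 genes were Mapt (0.94), Map1a (0.86), Map2 (0.79), Tppp (0.65), Map6 (0.47), Stmn3 (0.25) and Stmn2 (0.25), and the median over the 10 was 0.72. For Tppp3 the value was past the limit in all 14 settings (1.26 to 4.08) and with each cell left out (2.77 to 3.79); it was 4.08 within title letters. Tubb3 lay inside the limit when any of 12 cells was left out, turned to 0.43 without the 2 silent sensitive and 4 silent insensitive cells with over 75% Rn45s, and was -2.83 within title letters. The median over the 10 genes was -0.15 within title letters.

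When all 36 sensitive cells were set against all 42 insensitive cells, firing and silent together, 0 of 10 genes were past the limit in either direction, where 6.56% of 3733 genes were lower and 7.47% were higher. The lowest were Map6 (-0.84), Tubb3 (-0.79), Tppp (-0.48), Map1a (-0.44), Map2 (-0.30), Stmn3 (-0.19) and Stmn2 (-0.13). Tppp3 (0.55), Map1b (0.74) and Mapt (0.80) lay above the median gene. The 28 silent cells against the 50 others gave 1 gene past the limit downward (7.56% of 3481 genes), Mapt at -1.07, and 0 upward (7.9%). Leaving out any of 17 of the 78 cells took Mapt inside the limit, at most to -0.87 without silent sensitive cell 4. Map6 lay at -0.93, Stmn2 at -0.83, Map1b at -0.30 and Tppp3 at -0.0081. Stmn3 (0.11), Tppp (0.14), Tubb3 (0.15), Map1a (0.36) and Map2 (0.52) lay above the median gene.

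**Figure D3:**
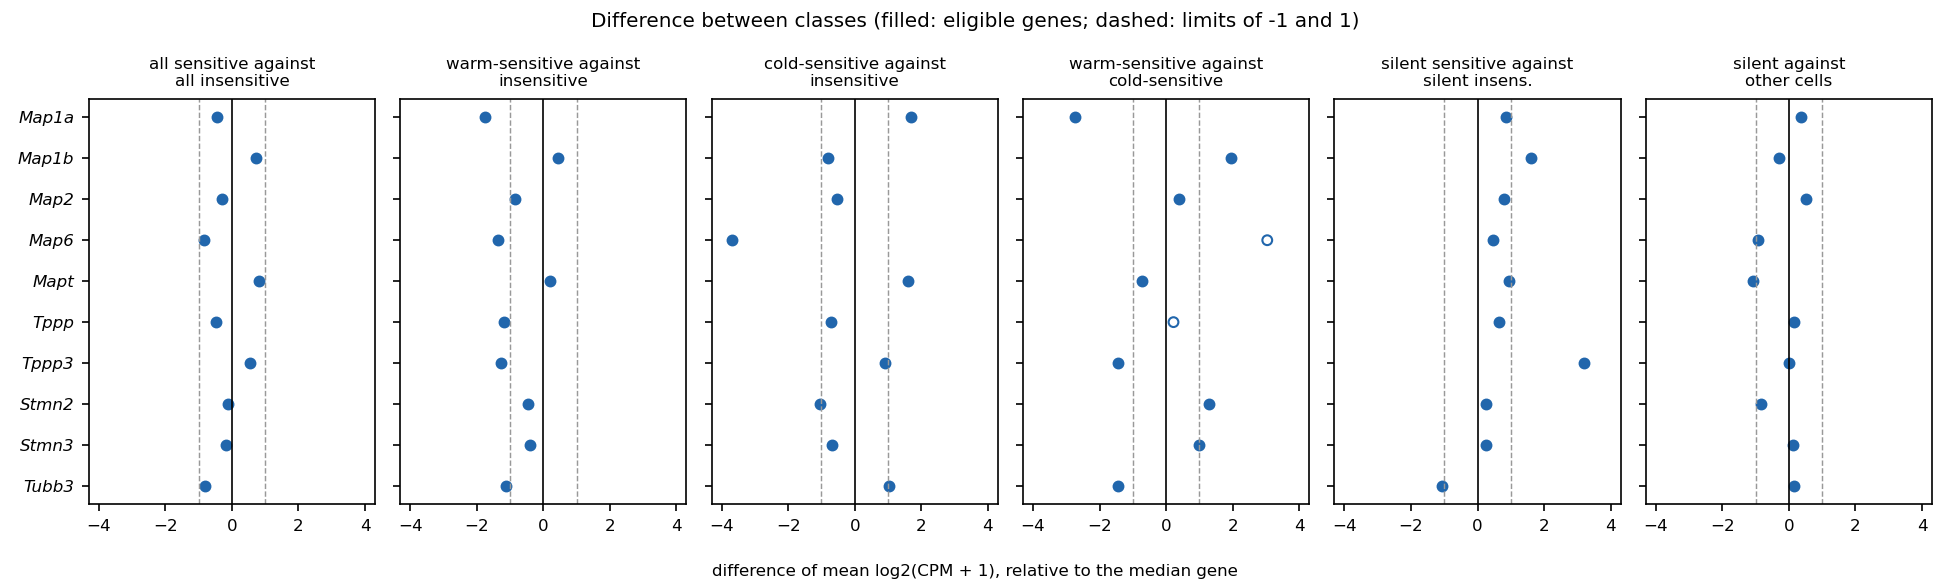
Relative difference of each gene in 6 comparisons: the difference of mean log2(CPM + 1) minus that of the median gene, at 0; dashed lines mark -1 and 1, and open points are genes that did not meet the minimum in either class. Map6 lies farthest to the left in cold-sensitive against insensitive cells (-3.70) and Tppp3 farthest to the right in silent sensitive against silent insensitive cells (3.19).

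Counted per cell, the set was fullest in firing insensitive and cold-sensitive neurons. A median of 8 of the 10 genes was held by insensitive cells (5 to 10) and by cold-sensitive cells (4 to 9), 6 by silent sensitive cells (3 to 10), 5.5 by silent insensitive cells (3 to 10) and 5 by warm-sensitive cells (1 to 8). All 10 were held by 4 insensitive, 2 silent insensitive and 1 silent sensitive cell. Of the 21 warm-sensitive cells 8 held 4 genes or fewer, and of the 24 insensitive cells 0 did. The count moved with the library: its Spearman correlation across the 78 cells was 0.71 with the number of genes with a count and -0.41 with the Rn45s share.

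**Figure D4:**
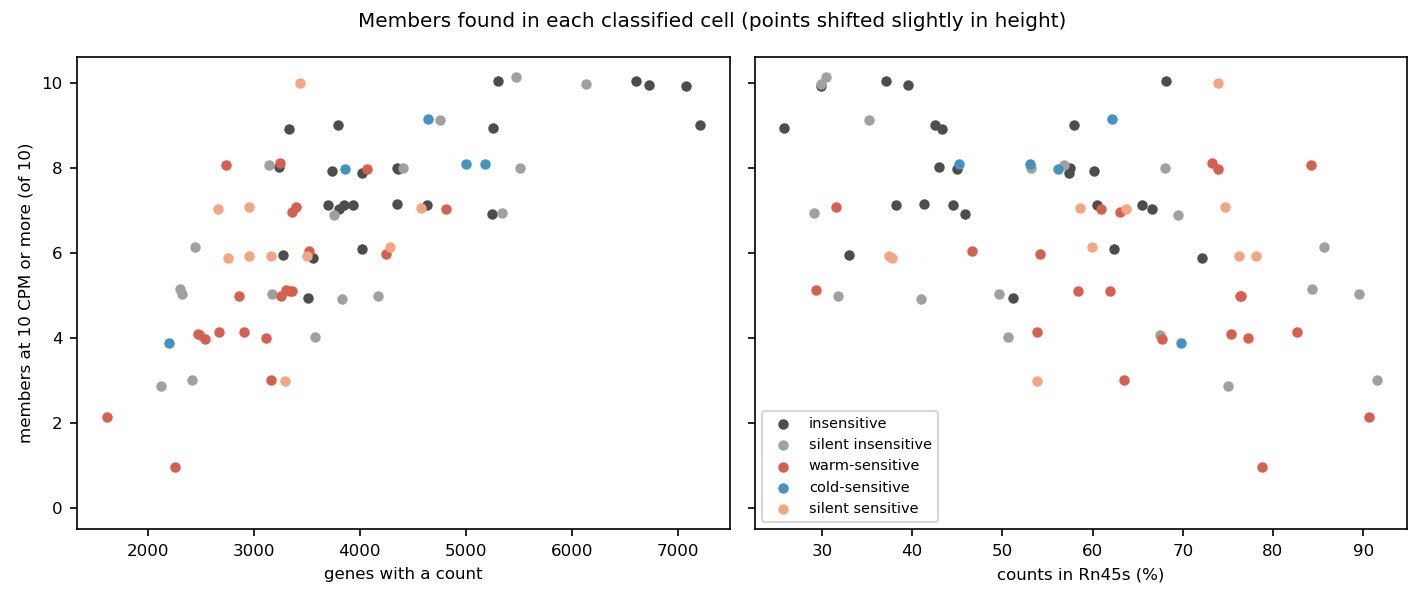
Number of the 10 genes at 10 CPM or more in each of the 78 classified cells against the genes with a count (left) and against the percent of counts in Rn45s (right), coloured by class. Cells with more genes hold more of the 10 (Spearman correlation 0.71), and cells with a large Rn45s share hold fewer (-0.41).

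From cell to cell the 10 genes varied together only weakly. Over the 45 pairs the Spearman correlation of log2(CPM + 1) across the 78 cells had a median of 0.21 (-0.12 to 0.50), and 43 pairs were positive. The points of a pair share a library and its depth: each gene alone correlated with the number of genes with a count at 0.071 (Map2) to 0.48 (Mapt), and with the Rn45s share at -0.57 (Stmn3) to -0.16 (Map1a). After a line on genes with a count was taken out, the median was 0.093 and 35 pairs were positive. On these scales the highest pair was Stmn2 with Stmn3, at 0.50 before and 0.44 after, followed by Map1b with Tppp, at 0.41 and 0.26. With totals without Rn45s the order turned: Map1b with Tppp gave 0.34 and the stathmin pair 0.28. Both stathmins followed the Rn45s share, at -0.53 for Stmn2 and -0.57 for Stmn3.

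**Figure D5:**
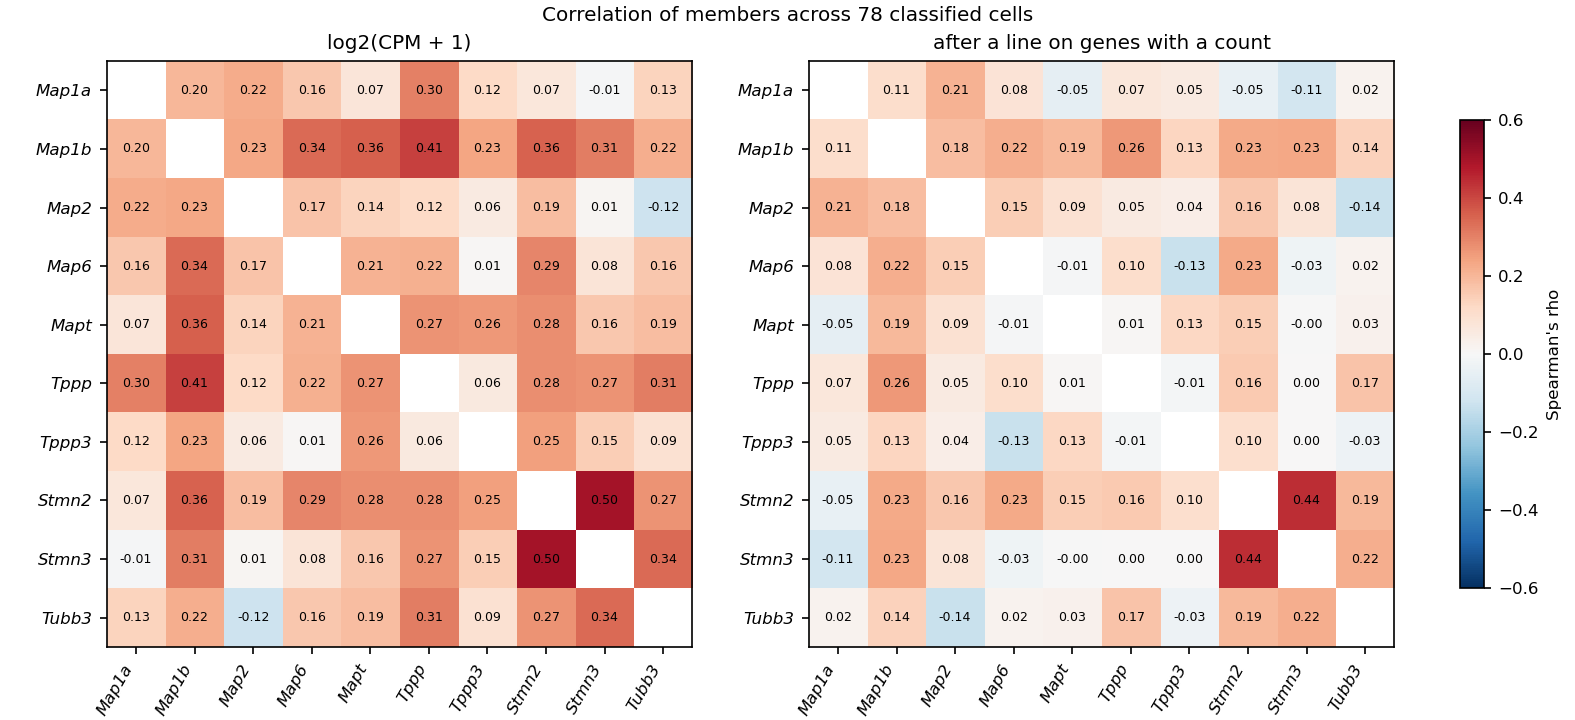
Spearman correlation of log2(CPM + 1) between the 10 genes across 78 classified cells, as measured (left) and after a line on the number of genes with a count was taken out (right). The stathmin pair is the highest in both panels, at 0.50 and 0.44, but gives 0.28 with totals without Rn45s, below Map1b with Tppp at 0.34.

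Map1b and Tppp are the most alike pair for which the RefSeq table of promoters (GRCm38.p6) holds both genes, so their promoters are shown, from 250 bases before to 50 bases after the start, 5′ to 3′ on the gene's strand. Map1b is at chr13:99516553-99516852 on the minus strand and Tppp at chr13:74009169-74009468 on the plus strand. The Map1b window lies outside the gene span given above, which ends at 99516540, so the sources place its start differently. Capitals mark the motif TATAA, known as the core promoter element near many starts. Matches are marked wherever they fall in the window, and their distance from the start was not tested. They also mark GGGCGG, known as a site of the factor SP1. The motif CCAAT, which would be marked likewise, was searched too, each on both strands.
Map1b: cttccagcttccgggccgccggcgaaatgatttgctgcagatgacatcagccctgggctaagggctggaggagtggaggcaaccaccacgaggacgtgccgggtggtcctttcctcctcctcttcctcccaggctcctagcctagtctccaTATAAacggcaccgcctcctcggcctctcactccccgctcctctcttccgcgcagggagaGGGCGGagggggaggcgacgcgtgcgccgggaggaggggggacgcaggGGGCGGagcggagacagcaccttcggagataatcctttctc
Tppp: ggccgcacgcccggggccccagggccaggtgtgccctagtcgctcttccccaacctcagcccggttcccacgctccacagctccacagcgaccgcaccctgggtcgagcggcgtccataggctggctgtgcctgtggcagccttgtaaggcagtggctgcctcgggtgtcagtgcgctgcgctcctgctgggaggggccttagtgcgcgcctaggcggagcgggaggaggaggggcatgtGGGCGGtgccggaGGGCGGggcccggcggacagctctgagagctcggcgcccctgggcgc
The Map1b window held 1 TATAA and 2 GGGCGG, and the Tppp window held 2 GGGCGG. Neither held CCAAT, and no matches overlapped. Of 27025 promoters of the same length 25.5% held TATAA, 35.9% GGGCGG and 37.9% CCAAT. The windows had 23 and 26 CpG dinucleotides, against a median of 7 over all promoters. Entries were found for 6 of the 10 genes, the others being Map1a, Map2, Stmn3 and Tubb3.

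For each gene, the genes most alike in pattern were ranked by Spearman correlation across the 78 cells among 2662 genes. The 3 closest are given for each. Stmn2 was most like Hspa8, a heat shock cognate chaperone (0.68), then Bex2 (0.57) and Mif (0.54). Stmn3 was most like Slc22a17 (0.63), Tecr (0.63) and Resp18 (0.61). Tppp was most like Elp5 (0.58), Pdhb, a subunit of pyruvate dehydrogenase (0.54), and Wbp2 (0.50). Mapt was most like Tagln3 (0.57), Nop10 (0.52) and Ppp3cb, a calcineurin subunit (0.51). For Map1b the closest were Gnas (0.55), Gap43, a growth cone protein (0.55), and Cxx1c (0.53). For Tppp3 they were Tuba4a, an alpha-tubulin (0.53), Calm2, a calmodulin gene (0.53), and Dnajb1, a heat shock co-chaperone (0.53). Tubb3 was most like Ids, a lysosomal sulfatase (0.53), Acp1 (0.52) and Atp6v1e1, a proton pump subunit (0.51). Map1a was most like Epb4.1l1 (0.51), Atp5g3 (0.48) and Prrc2c (0.47), and Map6 like Zcrb1 (0.49), Sptbn1, a spectrin (0.48), and Zbtb11 (0.46). Map2 had the lowest values, with Pum2 (0.38), Csrnp3 (0.38) and Pgrmc1 (0.35). These values also moved with the library. After a line on genes with a count was taken out, they ran from 0.28 (Map6 with Sptbn1) to 0.59 (Stmn3 with Resp18), and the order changed. With totals without Rn45s they ran from 0.24 (Stmn2 with Mif) to 0.55 (Tppp with Elp5).

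The rest of the microtubule system was read from lists. In warm-sensitive against insensitive cells 5 of 9 other tubulin genes compared were past the limit downward and 0 upward, with a list median of -1.06; Tubb2a (-1.81) and Tubb5 (-1.46) were the lowest. Tubulin folding cofactors, which build the tubulin dimer, had 3 of 4 downward, led by Arl2 (-1.39) and Tbca (-1.25). Plus-end binding genes had 3 of 11 downward, with Mapre1 (-2.32) and Clip3 (-2.08) the lowest and a list median of -0.60. Other structural microtubule-associated genes had 2 of 9 downward, Dclk1 (-1.40) and Map7d1 (-1.13), and kinases of these proteins 2 of 5, Cdk5 (-1.08) and Cdk5r1 (-1.06). Among tubulin-modifying enzymes 1 of 6 was past the limit upward, Agtpbp1 (1.60). Mapre1 and Dclk1 were held by 19.05% of warm-sensitive cells each, Map7d1 by 14.29% and Cdk5r1 by 9.52%. They met the minimum through the insensitive cells alone, so their directions carry little. Agtpbp1, held by 23.8% of warm-sensitive cells, met it in the same way but came out higher. As for the 10 genes, 13% of all genes were past the limit downward and 10% upward.

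In cold-sensitive against insensitive cells the lists split. Severing enzymes had 2 of 2 upward, Spast (3.78) and Katnal1 (1.57), and folding cofactors 2 of 4, Tbcb (3.901) and Arl2 (1.34). Spast was held by 60% of cold-sensitive and 0% of insensitive cells. It thus met the minimum through the cold-sensitive cells alone, and its direction carries little. Other tubulins had 2 of 9 upward, Tuba1b (1.40) and Tuba4a (1.13), and 1 downward, Tubb4b (-1.64). Structural genes had 3 of 9 downward, with Map9 (-1.51) and Map4 (-1.33) the lowest, and 1 upward, Camsap1 (2.73). Plus-end genes had 2 of 11 downward, Clasp1 (-2.004) and Mapre1 (-1.997). Map9, Clasp1 and Mapre1 were held by 20, 0 and 40% of cold-sensitive cells and met the minimum through the insensitive cells alone. These values rest on 5 cold-sensitive cells, beside 21.2% of all genes past the limit downward and 22.8% upward.

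Among silent cells, Tuba4a was higher in the sensitive cells by 1.998, and Tubb5 was lower, at -1.41, out of 8 other tubulins. Ttl, the enzyme that adds tyrosine back to alpha-tubulin, was higher by 2.96, while Ttll5 and Sirt2 were lower, at -1.26 each, out of 4 modifying enzymes. Among plus-end genes 2 of 10 were upward, Dst (1.31) and Clip1 (1.20), and 3 downward, with Nav3 (-1.30) and Mapre3 (-1.12) the lowest. Kinase genes had 2 of 3 upward, Cdk5r1 (1.88) and Cdk5 (1.0). Ttl and Cdk5r1 met the minimum through the silent sensitive cells alone. Ttll5, Sirt2, Nav3 and Mapre3 met it through the silent insensitive cells alone. The directions of all these genes carry little. Of the other stathmin and TPPP genes, 2 were compared and 0 passed the limit. Beside these counts, 23% of all 3459 genes compared were past the limit upward and 18% downward.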

How the data were processed

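RNA of 96 single preoptic neurons was measured. The authors deposited raw counts of each gene in each cell. A deposited second table holds normalized signal, by a scaling not given in the sources used here. The build mm10 and the tools FastQC, STAR and edgeR are named without versions, per the submitters' processing notes; no source used here gives the counting step or its strand setting. Here, CPM were taken over all counts of a cell, Rn45s included, and averaged as log2(CPM + 1), which understates changes of low genes. A class is 1 sample, so no test between classes was run; single cells far from their class were marked by Dixon's critical values. The 10 genes, the lists and the rules for named genes were chosen with earlier results of these data known. Named are the 10 genes in each comparison, the 3 most alike genes of each, and at most 2 genes per list and direction past the limit. Gene positions and merged exons come from GENCODE (mm10), promoters from RefSeq. Alternatives were other detection limits and pseudocounts, edgeR TMM library sizes (4.0.16), DESeq2 size factors (1.42.0), totals without Rn45s, the deposited signal, thinning, summed counts, title letters (what a letter stands for is not given) and each cell left out. Calculations ran in Python 3.11.15 and R 4.3.3 and were tested on simulated data.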

Additional observations from a re-analysis of the deposited data

Results flagged for a closer look

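A gene's values of log2(CPM + 1) in the 5 cold-sensitive or the 10 silent sensitive cells were checked for a cell far from the rest. Of such groups, 20 here, chance flags about 1 in 20 where values have a normal spread. The rate for values like these, many of them near 0, was not tested. On plain CPM other cells could be flagged. The 4 found are not independent, since 3 come from cold-sensitive cell 4. In cold-sensitive cell 4 Map1b was at 6.93 CPM, Mapt at 3.47 CPM and Tubb3 at 0, each far below the other 4 cold-sensitive cells. In cold-sensitive cell 5 Map6 was at 0.639 CPM, a single count, where the other 4 cells were at 0; a lone count above zeros always meets the criterion. Among the 18 cells of unknown class, which entered no comparison, Mapt was held by 88.9% of cells (65.3 to 98.6%). That lay above the upper bound for insensitive cells (48.9 to 87.4%), but the 2 intervals overlapped. Stmn2 was held by 100% of the unknown cells, above the upper bound of 99.9% for insensitive cells, which any class at 100% exceeds.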

How the results depend on the processing

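No paired analysis was possible because the labels give no animal and no replicate number shared between classes. Over all settings, left-out cells included, 979 values for the medians and counts stayed close to those reported and 128 moved. In the list that follows, each number is the count of the 10 genes past the limit, or, where said, their median relative difference. Sensitive against insensitive, where the report gives 0 both ways: lower 2 at a detection limit of 1 count and at a pseudocount of 0.1 CPM, 5 with no limit on low genes and 1 with summed counts; higher 3 at 0.1 CPM, 2 with DESeq2 and the deposited values, and 1 with totals without Rn45s, the stricter limit, thinning, title letters and equal weights; the median was -1.02 with no limit. Warm-sensitive against insensitive: lower 3 at 10 CPM, with TMM, deposited values, thinning, summed counts and title letters, 1 with DESeq2 and the stricter limit, and 8 with no limit; higher 1 at 0.1 CPM, with DESeq2 and without Rn45s; the median was -2.01 with no limit, -0.16 with summed counts and -0.37 within letters. Cold-sensitive against insensitive: lower 1 at 0.1 CPM, with TMM, DESeq2, totals without Rn45s, deposited values and thinning, 4 with no limit and 5 with the stricter limit; the median was 0.23 with summed counts. Warm-sensitive against cold-sensitive: higher 1 at 10 CPM, with no limit and with summed counts; lower 6 with no limit and 1 with the stricter limit; the median was -1.15 with no limit and 0.55 within letters. Silent sensitive against silent insensitive: lower 0 at 10 CPM, without cells over 75% Rn45s, thinned and summed, and 2 within letters; higher 4 with DESeq2 and without those cells, 7 thinned and 5 summed; the median was -0.15 within letters. Silent against other cells: lower 2 at 1 count, at 0.1 CPM, without Rn45s, without those cells and thinned, 0 at 10 CPM and the stricter limit, and 3 with no limit and summed, with higher 1 summed. Leaving out 1 cell gave 3 to 6 lower in warm-sensitive against insensitive (3 without insensitive cell 7 or 13), 1 to 4 lower in cold-sensitive against insensitive, 0 to 2 lower in silent against other cells, 2 to 5 higher and 0 to 1 lower in silent sensitive against silent insensitive, and 3 to 5 lower and 1 to 4 higher in warm-sensitive against cold-sensitive cells, where the median ran from -1.13 without cold-sensitive cell 3 to 0.37 without warm-sensitive cell 19. Of the 39 values of single genes inside the limit, 27 had the other sign in some setting or with a cell left out, Map2 among silent cells, for example, at -0.88 within letters and Map1b at 0.27 with summed counts in cold-sensitive against insensitive cells. Genes past the limit turned direction in warm-sensitive against cold-sensitive cells (Stmn2 -0.17 and Stmn3 -0.46 with no limit, Tppp3 0.076 within letters, Stmn3 -0.028 without cold-sensitive cell 5) and in the silent classes (Tubb3 0.43 without cells over 75% Rn45s). With no limit on low genes the median is taken over genes near 0; for the other settings the cause was not tested.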

Other observations

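The 18 cells of unknown class held a median of 8 of the 10 genes (5 to 10). In them Map6 ran from 0 to 544 CPM with a median of 31.5 CPM, Tppp3 from 0 to 1480 CPM with a median of 81.6 CPM, and Stmn3 from 255 to 2930 CPM with a median of 1175 CPM. Their median Rn45s share was 42.2% (21.8 to 79.6%), and the 9 microglial markers had a median sum of 26.6 CPM (2.00 to 4502).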
